A study of Mus musculus with 9 samples.

Results

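The respiratory chain was followed through its genes in mouse leukemia cells of the T-ALL type (acute lymphoblastic leukemia of T cells) held at 3 levels of a human MYC transgene. Members were the protein-coding mouse genes whose symbol names a subunit or a like-named assembly factor of complexes I to V (Nduf, Sdha to Sdhd, Uqcr, Cox4 to Cox8, Atp5 and the mitochondrial mt-Nd, mt-Co, mt-Atp and mt-Cytb), together with Cyc1 and Cycs. This rule found 108 of the 53380 features in the count tables, of which 95 lie in the nucleus and 13 on mitochondrial DNA, and it used no expression value.

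The chain sits in the inner mitochondrial membrane. Complexes I and II pass electrons to ubiquinone, complex III passes them to cytochrome c and complex IV to oxygen, while complex V lets protons flow back and makes ATP. Complex II is built from nuclear genes alone, whereas the other complexes join nuclear subunits with subunits encoded by mitochondrial DNA, so that 2 genomes have to supply each assembly.

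The cells derive from tumors of FVB/N mice with the transgenes EμSRα-tTA and tet-O-MYC, in which a lymphoid enhancer and promoter drives the tetracycline transactivator tTA and this switches on the human transgene. All groups carry both transgenes. MYC on cells were mock treated, MYC intermediate cells received 20 pg/mL and MYC off cells 500 pg/mL doxycycline, each for 48 hours, with 3 libraries per group from polyadenylated RNA. The labels give neither the clone nor whether replicates were separate cultures, so the p-values below measure the spread between these libraries, which may be technical.

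Totals were 18705516 to 39678799 counts per library, and levels are given as CPM, counts scaled to the same total in every library. Human MYC was at 1340, 1190 and 1250 CPM in the MYC on libraries, at 428, 414 and 383 CPM at the intermediate level and at 4.08, 4.01 and 3.26 CPM with MYC off, in the order that the labels give. Of 9 T lineage markers, 8 had a mean of at least 5 CPM in each group, the other being Trbc1. Their summed level was 3683 to 3830 CPM with MYC on, 6012 to 6288 CPM at the intermediate level and 7838 to 8168 CPM with MYC off. Of 12 markers of B, myeloid, erythroid, stromal and endothelial cells, Csf1r and Pdgfrb alone reached 5 CPM in any group, 6 to 8 were at 0 counts per group, and the list summed to 26.5 to 33.5 CPM per library. In these bulk samples a lower share of a gene's RNA and a higher amount of all other RNA cannot be told apart.

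Between MYC on and MYC off, most respiratory chain genes were higher with MYC, by less than 2-fold in the median gene. Of 95 members with enough reads to test (88 nuclear and 7 mitochondrial), 54 were called higher and 3 lower in MYC on by edgeR's quasi-likelihood test at a Benjamini-Hochberg adjusted p under 0.01. Over all 14098 genes tested, 27.4% were called higher and 27.5% lower. The median log2 fold change of the members was 0.48, against −0.03 over all genes tested. In 68 of the 95 members the lowest MYC on library exceeded the highest MYC off library, and over all genes tested this held for 32.8%.

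**Figure D1:**
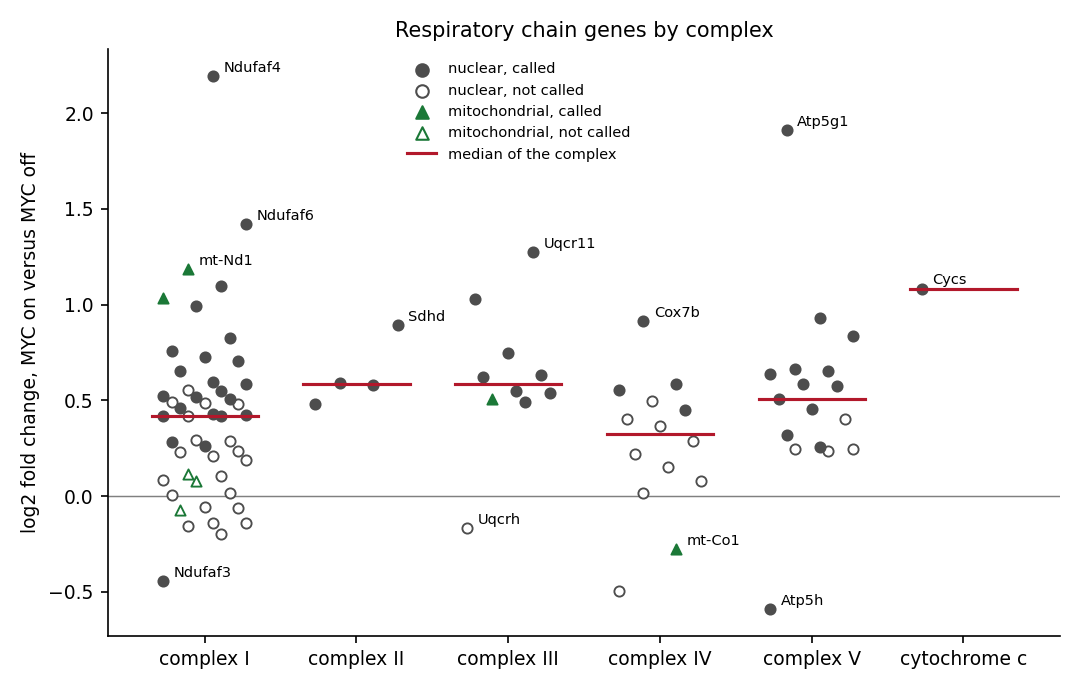
Log2 fold change between MYC on and MYC off (positive is higher in MYC on) for the 95 tested members, with 1 point per gene, grouped by complex. Filled points were called at an edgeR adjusted p under 0.01, triangles are mitochondrial genes and red lines are medians, which run from 0.33 in complex IV to 0.58 in complexes II and III, with cytochrome c, a single gene, at 1.08.

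Complexes differed in how many of their nuclear genes were called. In MYC on against MYC off, higher calls were 4 of 4 for complex II, 8 of 9 for complex III, 12 of 17 for complex V, 22 of 44 for complex I and 4 of 13 for complex IV. Their median log2 fold changes were 0.58, 0.62, 0.51, 0.42 and 0.37 in that order. Over all genes tested 27.4% were called higher, close to the 30.8% of nuclear complex IV. With the replicate number as a block, nuclear complex IV had 7 of 13, and it had 2 with DESeq2, without any single MYC on library or without MYC off replicate 2 or 3, while complex V had 7 of 17 without MYC off replicate 3. Nuclear complex III had 6 with DESeq2, without MYC on replicate 1 or 3 or without MYC off replicate 2 or 3. Nuclear complex I ran from 18 to 28 of 44 with 1 library left out. The differences between complexes were not tested, and the precision was unequal. The median standard error of a log2 fold change was 0.06 for complex II and 0.14 for nuclear complex IV. Nuclear members averaging at least 100 CPM over the 9 libraries were called higher in 26 of 34 cases (median 0.51) and those with less in 25 of 54 (median 0.44). With a listed gene length under 1000 bases, 6 of 21 nuclear members were called higher (28.6%, median 0.29). Of the longer ones 45 of 67 were (67.2%, median 0.52). The part of gene length in the differences between complexes was not tested.

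Complex I, which oxidizes NADH and had the most genes tested (49), had the widest range of log2 fold changes, with assembly factors at both ends. Its nuclear subunits ran from −0.20 to 1.09, inside the −0.59 to 1.91 of complex V. The largest rise was in an assembly factor, Ndufaf4 (chromosome 4, 24898083 to 24905001, mm10), whose product helps to build the enzyme and is not part of it. Ndufaf4 was at 31.4, 33.7 and 24.7 CPM with MYC on, 18.1, 17.6 and 16.8 CPM at the intermediate level and 7.33, 6.61 and 5.95 CPM with MYC off. The 3 groups did not overlap. The log2 fold change of MYC on over MYC off was 2.19 ± 0.12 (SE, edgeR adjusted p = 3.78e-10), a 4.51-fold difference in mean CPM. A second assembly factor, Ndufaf6 (chromosome 4, 11051045 to 11076205), showed the same order of groups. It was at 32.1, 31.7 and 31.5 CPM with MYC on, 22.4, 22.3 and 19.7 CPM at the intermediate level and 12.4, 13.1 and 10.99 CPM with MYC off. Its log2 fold change between MYC on and MYC off was 1.42 ± 0.09 (adjusted p = 2.08e-09).

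Another assembly factor went the other way. Ndufaf3 was at 31.0, 31.1 and 31.0 CPM with MYC on and at 45.6, 42.1 and 41.9 CPM with MYC off, a log2 fold change of −0.44 ± 0.08 (edgeR adjusted p = 1.08e-04). In MYC intermediate it was at 42.1, 39.6 and 38.3 CPM, above MYC on in every library (−0.38 ± 0.08 for MYC on over MYC intermediate, adjusted p = 8.78e-04), and it did not differ detectably from MYC off (adjusted p = 0.521). Of the 8 like-named assembly factors of complex I, 5 were called higher and 1 lower in MYC on against MYC off, beside 27.4% and 27.5% of all genes tested.

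The subunits of complex I moved less. Over all genes tested, 27.4% were called higher and 27.5% lower in MYC on against MYC off. Of its 7 nuclear core subunits, the ones that carry the flavin and the iron-sulfur clusters, 5 were called higher, with a median log2 fold change of 0.42. The largest of these, chosen after its values were seen, was Ndufs1, which holds several of the clusters, at 444, 457 and 422 CPM with MYC on and 269, 268 and 263 CPM with MYC off (0.76 ± 0.06, edgeR adjusted p = 1.94e-08). Of the 29 accessory subunits 12 were called higher and none lower by edgeR, with a median of 0.29, and none of the lower ones had an unadjusted p under 0.05. Log2 fold changes of single accessory subunits ran from −0.20 to 1.09.

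Complex II, succinate dehydrogenase, links the citric acid cycle to ubiquinone, and each of its 4 genes was called higher in MYC on than in MYC off. Sdhd, a membrane anchor, had the largest difference. It was at 330, 315 and 320 CPM with MYC on, 236, 236 and 238 CPM at the intermediate level and 185, 175 and 172 CPM with MYC off (MYC on over MYC off 0.89 ± 0.05 on the log2 scale, edgeR adjusted p = 1.09e-09). The groups were separate and evenly spaced on the log2 scale, with steps of 0.43 ± 0.05 and 0.46 ± 0.05 (adjusted p = 1.07e-05 and 9.74e-06). Sdha, the flavoprotein, differed by 0.48 ± 0.06 and Sdhb, the iron-sulfur subunit, by 0.59 ± 0.06 between MYC on and MYC off. Sdhc, the other anchor, differed by 0.58 ± 0.14 (adjusted p = 2.28e-03) and was the only 1 of the 4 whose MYC intermediate libraries overlapped those of the other groups. Sdhc was not called by DESeq2, nor when replicate 1 of MYC on (0.51) or replicate 2 (0.52) or 3 (0.50) of MYC off was left out.

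Complex III, which hands electrons to cytochrome c, had 8 of its 9 nuclear genes called higher in MYC on against MYC off. Small accessory subunits led. Uqcr11 was at 100, 92.5 and 121 CPM with MYC on and 51.4, 38.7 and 42.4 CPM with MYC off (1.28 ± 0.20, edgeR adjusted p = 3.76e-05). Uqcrq was at 187, 174 and 194 CPM with MYC on and 106, 88.1 and 84.4 CPM with MYC off (1.03 ± 0.14, adjusted p = 8.32e-06). Both had MYC on libraries entirely above MYC off. Uqcr10, the next in size, differed by 0.75 ± 0.19 (adjusted p = 3.01e-03) and was not called by DESeq2, nor without MYC on replicate 1 (0.72) or 3 (0.69) or MYC off replicate 2 (0.64) or 3 (0.70). Cyc1, the heme-carrying cytochrome c1, was at 550, 526 and 588 CPM with MYC on, 438, 493 and 457 CPM at the intermediate level and 372, 357 and 371 CPM with MYC off, without overlap between groups (0.63 ± 0.06 for MYC on over MYC off, adjusted p = 2.29e-07). The 1 nuclear gene of the complex that was not called, Uqcrh, a hinge protein of the complex, had a log2 fold change of −0.17 ± 0.13. Cycs, the mobile carrier cytochrome c itself, was at 88.9, 92.3 and 82.2 CPM with MYC on, 88.3, 67.2 and 61.4 CPM at the intermediate level and 46.0, 39.2 and 41.6 CPM with MYC off (1.08 ± 0.12 for MYC on over MYC off, adjusted p = 7.52e-07).

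Complex IV, cytochrome c oxidase, reduces oxygen to water. The 4 nuclear members called higher in MYC on against MYC off were Cox7b, Cox5a, Ndufa4 and, outside the rule for named genes, Cox6c. Cox7b, a small accessory subunit, was at 55.0, 54.3 and 58.5 CPM with MYC on and 33.5, 29.5 and 28.1 CPM with MYC off (0.91 ± 0.15, edgeR adjusted p = 5.41e-05). Cox5a differed by 0.59 ± 0.11, Ndufa4 by 0.55 ± 0.15 and Cox6c by 0.45 ± 0.14. The calls of Ndufa4 and Cox6c were lost with DESeq2 and without any single MYC on library or either MYC off replicate 2 or 3, at values of 0.46 to 0.57 for Ndufa4 and 0.39 to 0.49 for Cox6c. The other nuclear subunits tested were not called, which does not show that they did not change. Cox5b had a log2 fold change of 0.50 ± 0.20 (adjusted p = 0.0395), above that of Cox6c, and Cox7c of 0.40 ± 0.24. Cox4i1 had a log2 fold change of 0.22 ± 0.08, Cox6a1 of 0.29 ± 0.14, Cox6b1 of 0.37 ± 0.14, Cox7a2 of 0.15 ± 0.14 and Cox8a of 0.08 ± 0.13. Cox7a2l, which takes part in joining complexes III and IV, stood at 0.02 ± 0.08. With the replicate block, Cox4i1 (0.23), Cox5b (0.54) and Cox6b1 (0.39) were called higher as well.

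Isoforms of complex IV known from muscle, testis, lung or stress were nearly silent at every MYC level. Cox4i2, Cox6b2, Cox7a1, Cox7b2, Cox8b, Cox8c and the complex IV subunit Ndufa4l2 had too few reads to test, at most 54 counts over all 9 libraries, and Cox6b2, Cox7b2 and Cox8c had 0 of 254517689 counts, and counting error alone would allow each up to 0.0118 CPM. Cox6a2, the heart and muscle form, was the exception at 1.67 to 3.91 CPM. Per length, in the deposited TPM, it made up 1.27% of Cox6a in MYC on and 2.09% in MYC off, and its own difference was not called (−0.50 ± 0.25, edgeR adjusted p = 0.0898). Cox4i1, Cox6a1, Cox6b1, Cox7b, Cox8a and Ndufa4 held 97.9 to 100% of the CPM of their family in each library.

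Complex V, ATP synthase, gave both the largest rise and the largest fall among nuclear subunits. The catalytic β subunit gene Atp5b had, per length, the highest level of all members in MYC on (2313 TPM) and was at 2950, 2869 and 2916 CPM with MYC on, 2183, 2233 and 2310 CPM at the intermediate level and 1624, 1541 and 1525 CPM with MYC off. The groups were widely separated relative to their spread (0.93 ± 0.05 for MYC on over MYC off, edgeR adjusted p = 5.00e-10). Atp5e, the small ε subunit of the rotor, differed by 0.84 ± 0.20 (adjusted p = 1.94e-03) and was not called without MYC off replicate 3 (0.71).

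The c subunit, which forms the proton-driven ring of the motor, is made from 3 nuclear genes whose mature proteins are the same and whose import sequences differ. Atp5g1 was at 154, 139 and 150 CPM with MYC on, 108, 93.3 and 66.8 CPM at the intermediate level and 45.2, 38.2 and 36.9 CPM with MYC off. Its groups did not overlap, and the log2 fold change of MYC on over MYC off was 1.91 ± 0.14 (edgeR adjusted p = 8.30e-09). Atp5g3 differed by 0.64 ± 0.11 (adjusted p = 7.97e-05) and Atp5g2 by 0.51 ± 0.13 (adjusted p = 3.70e-03). Atp5g2 was not called without MYC on replicate 1 (0.47) or 3 (0.51) or MYC off replicate 2 (0.45) or 3 (0.47).

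The make-up of c subunit RNA differed between the groups. Atp5g1 supplied 33.3% ± 0.34 (SD, n = 3) of the summed CPM of the 3 genes in MYC on, 24.8% ± 1.6 in MYC intermediate and 16.9% ± 0.27 in MYC off, with no overlap between groups. The share of Atp5g3 was 59.4% ± 0.46, 67.9% ± 1.7 and 73.3% ± 0.25 in the same order. Per length, in TPM, the share of Atp5g1 was 17.7% in MYC on, 12.5% in MYC intermediate and 8.04% in MYC off, with its listed length of 4912 bases counting every annotated exon. No test was made on these shares.

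**Figure D2:**
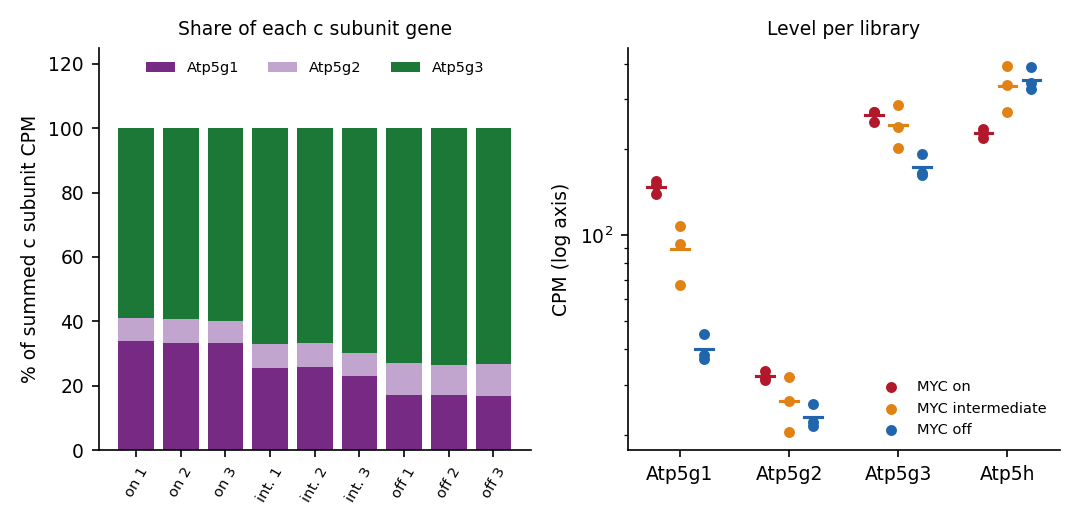
Left, share of the summed CPM of the 3 c subunit genes per library, as stacked bars. Right, CPM on a log axis of these genes and of Atp5h, with 1 point per library and a line at each group mean (n = 3), in which Atp5g1 falls from 139 to 154 CPM in MYC on to 36.9 to 45.2 CPM with MYC off and Atp5h runs the other way.

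The region upstream of the 2 c subunit genes most expressed in MYC on is shown because both hold the E-box letters CACGTG, the palindrome that MYC with MAX is known to bind. The stretches run 5′ to 3′ from base −250 to base −39 before the RefSeq start (GRCm38.p6, minus strand, chr11:96075670-96075881 for Atp5g1 and chr2:73911365-73911576 for Atp5g3). Capitals mark CACGTG.
Atp5g1: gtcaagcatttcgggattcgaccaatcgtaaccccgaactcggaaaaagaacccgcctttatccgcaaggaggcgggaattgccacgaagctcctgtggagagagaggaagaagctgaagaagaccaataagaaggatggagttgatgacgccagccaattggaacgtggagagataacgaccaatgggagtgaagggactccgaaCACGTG
Atp5g3: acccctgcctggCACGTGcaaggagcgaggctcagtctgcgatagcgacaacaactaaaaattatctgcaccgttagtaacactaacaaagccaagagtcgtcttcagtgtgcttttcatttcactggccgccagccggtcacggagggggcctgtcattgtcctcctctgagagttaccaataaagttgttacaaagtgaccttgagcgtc
The motif starts at base −44 in Atp5g1 and at base −238 in Atp5g3, relative to the RefSeq start.

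RefSeq promoter windows of 300 bases (250 before to 50 after the start) were matched for 73 of the 88 tested nuclear members. CACGTG was in 6 of the 73 (8.22%), close to the 8.09% of the 27025 genes with a window. It was in 6 of the 40 called higher in MYC on against MYC off, in 0 of the 31 not called and in 0 of the 2 called lower. The other genes of the 6 were Ndufa7, Ndufv1, Atp5f1 and Atp5l. The letters CGCATGCG, the core of the palindrome of the transcription factor NRF1, which is known for respiratory chain promoters, were in 8 of the 40 and 4 of the 31, and in 2.07% of all windows. Cycs, Uqcr11 and Atp5g2 were among the 8. Atp5g2, the third c subunit gene, was thus called higher without CACGTG in its window. With the core flanked by a G before and a C after it, the form searched first, the match was in 4 of the 40, 3 of the 31 and 1.07% of all windows. The ETS letters CCGGAAGT, on either strand like the others, were in 1 of the 40, 3 of the 31 and 1 of the 2 called lower (Atp5h, at base −39), and in 4.31% of all windows. These are letter matches, not binding sites, and their shares were not tested.

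The gene with the largest rise, Ndufaf4, held the NRF1 core at base −112, shown in capitals below from base −250 to base −50 (plus strand, chr4:24897833-24898033).
Ndufaf4: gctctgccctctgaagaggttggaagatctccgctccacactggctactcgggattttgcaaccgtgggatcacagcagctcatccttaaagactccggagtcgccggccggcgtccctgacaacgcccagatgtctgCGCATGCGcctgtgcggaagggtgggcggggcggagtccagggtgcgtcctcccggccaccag
No CACGTG was in this window.

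Atp5h, the d subunit of the stalk that holds the catalytic head of ATP synthase, was lower in MYC on. It was at 237, 229 and 220 CPM with MYC on, 392, 336 and 271 CPM at the intermediate level and 388, 341 and 326 CPM with MYC off. Each MYC on library lay below each of the other 6. The log2 fold change of MYC on was −0.59 ± 0.11 over MYC off (edgeR adjusted p = 1.96e-04) and −0.56 ± 0.11 over MYC intermediate (adjusted p = 6.08e-04). MYC intermediate and MYC off differed by −0.03 ± 0.11 (adjusted p = 0.840).

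Short genes with processed copies elsewhere in the genome can lose or share reads, and how the counting treated reads that fit several places is not given in the sources used here. Of the 108 members, 22 (16 nuclear) had at least 80% of their coding sequence matched at 97% identity by another annotated gene. For Atp5g1 this was Gm10039, which held 7.74% of the counts of the pair, and for Atp5h Gm10250 with 1.51%. For Ndufs5, a small complex I subunit, the copy BC002163 held 69.6%, so the split between them is uncertain. With the copies added to their members, Atp5g1 was at 1.90 ± 0.13, Atp5h at −0.59 ± 0.11 and Uqcr11 at 1.28 ± 0.20 for MYC on over MYC off, and 1 of the 95 tested members changed its call. That was Ndufs3, a core subunit of complex I, which was then called higher (0.24 ± 0.07). Exons of 42 members also overlapped exons of another annotated gene on either strand, in 5 of them over more than 20% of their bases. The part of reads from such overlaps was not tested.

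The mitochondrial genes differed among themselves in direction. All 13 of its protein genes are read from long polycistronic transcripts, 12 from 1 strand and mt-Nd6 from the other. In MYC on against MYC off, 3 of the 7 that could be tested were called higher and 1 lower, against 27.4% and 27.5% of all genes tested, and 3 were not called. The median log2 fold change was 0.11, against 0.48 for the 88 nuclear members, and the difference between the genomes was not tested. With 7 genes this median is the value of a single gene, mt-Nd6, which had the largest standard error among them. As the libraries keep no strand, reads from the opposite strand of mt-Nd6 were not told apart. The mitochondrial median was 0.25 without MYC on replicate 3, 0.18 without MYC off replicate 1 and 0.047 without MYC on replicate 1.

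The 2 protein genes nearest the start of the transcript had the largest values. mt-Nd1, a membrane subunit of complex I, was at 167, 168 and 153 CPM with MYC on, 176, 123 and 113 CPM at the intermediate level and 73.6, 72.0 and 74.1 CPM with MYC off (1.18 ± 0.12 for MYC on over MYC off, edgeR adjusted p = 5.26e-07). mt-Nd2, another membrane subunit, was at 23.6, 23.4 and 21.2 CPM with MYC on and 11.4, 12.3 and 10.3 CPM with MYC off (1.04 ± 0.15, adjusted p = 2.37e-05). MYC on lay above MYC off in every library for both, and their MYC intermediate libraries overlapped MYC on.

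mt-Cytb, the mitochondrial subunit of complex III, was at 259, 266 and 255 CPM with MYC on, 302, 259 and 236 CPM at the intermediate level and 180, 183 and 198 CPM with MYC off. MYC on and MYC intermediate overlapped (−0.04 ± 0.08, edgeR adjusted p = 0.673), and both exceeded MYC off (0.51 ± 0.08 and 0.55 ± 0.08, adjusted p = 3.05e-05 and 4.59e-05). mt-Co1, the catalytic subunit of complex IV, was the gene called lower in MYC on. It was at 446, 485 and 496 CPM with MYC on, 542, 563 and 620 CPM at the intermediate level and 555, 573 and 643 CPM with MYC off (−0.28 ± 0.06 for MYC on over MYC off, adjusted p = 1.35e-03). Without MYC on replicate 1 (−0.24) or MYC off replicate 3 (−0.22) it was no longer called. The complex I genes mt-Nd4, mt-Nd5 and mt-Nd6 had log2 fold changes of −0.07 ± 0.08, 0.08 ± 0.07 and 0.11 ± 0.18.

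The other mitochondrial genes had almost no counts. mt-Co2, mt-Atp8, mt-Atp6, mt-Co3, mt-Nd3 and mt-Nd4l follow each other on the mitochondrial genome from base 7013 to base 10173, and the most that any of them had was 23 counts over the 9 libraries. mt-Atp8, mt-Nd3 and mt-Nd4l had 0. All but mt-Atp8 have a copy that matches 99.9 to 100% of their coding sequence among unprocessed pseudogenes on nuclear chromosome 1 (24611535 to 24616197), and the 7 pseudogenes annotated there held 1989 counts in all. Gm28439, the first of them, matches 63.6% of mt-Nd4, and mt-Co1 is matched in full by Gm13340 on chromosome 2, which held 351 counts against 140936 for mt-Co1. At this identity no other annotated gene matched mt-Nd1, mt-Nd2, mt-Nd5, mt-Nd6 or mt-Cytb. The part of shared reads in these levels was not tested, and a value near 0 here is not a measure of the transcript.

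**Figure D3:**
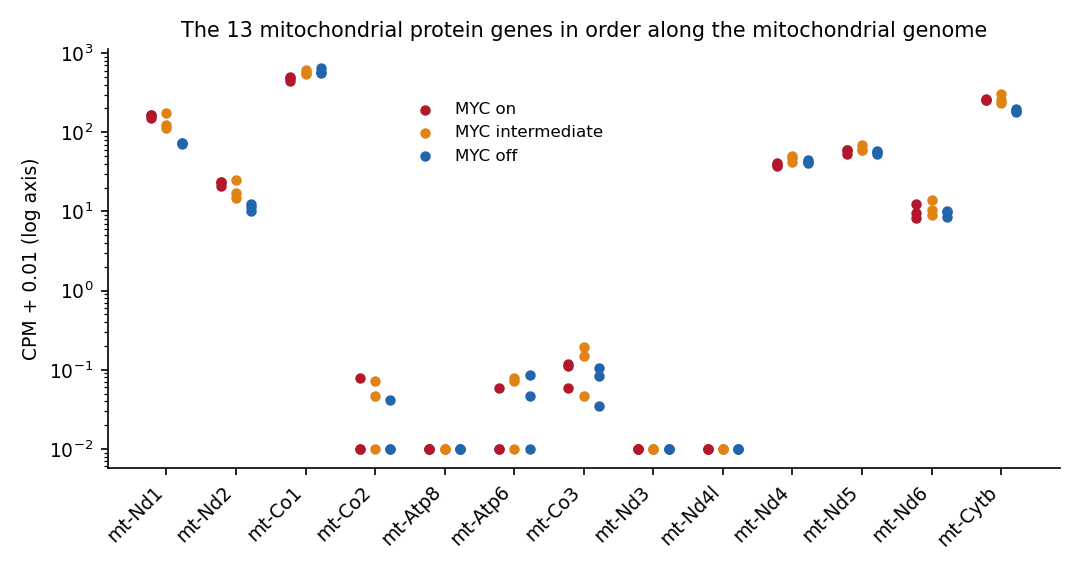
CPM plus 0.01 on a log axis for the 13 mitochondrial protein genes in genome order, with 1 point per library. The run from mt-Co2 to mt-Nd4l holds at most 23 counts per gene over the 9 libraries, and among the genes with reads mt-Nd1, mt-Nd2 and mt-Cytb lie higher in MYC on than in MYC off while mt-Co1 lies lower.

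Summed over genes, the nuclear members made up 1.66% of all counts in MYC on, 1.46% in MYC intermediate and 1.162% in MYC off, and the mitochondrial ones 0.103%, 0.112% and 0.0970%. The summed nuclear level was 16645 ± 396 CPM with MYC on, 14602 ± 813 CPM at the intermediate level and 11617 ± 645 CPM with MYC off (SD, n = 3), with no overlap between groups. The ratio of MYC on to MYC off was 1.43 for all nuclear members and 1.34 without Atp5a1 and Atp5b, the α and β subunits of complex V. By complex it was 1.31 for nuclear complex I, 1.47 for complex II, 1.49 for complex III, 1.24 for complex IV and 1.53 for complex V. The summed mitochondrial level was 1027 ± 23 CPM with MYC on and 970 ± 59 CPM with MYC off, a ratio of 1.06 with overlapping libraries, and leaving out mt-Co1 gave 552 ± 19 and 379 ± 12 CPM, a ratio of 1.46. As mt-Co1 was the mitochondrial gene called lower in MYC on, leaving it out had to raise the ratio. No other mitochondrial gene was left out in this way. These sums rest mostly on the abundant genes and were not tested. The mitochondrial sums do not measure the whole mitochondrial genome, since 6 of its 13 protein genes, from mt-Co2 to mt-Nd4l, had almost no counts.

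**Figure D4:**
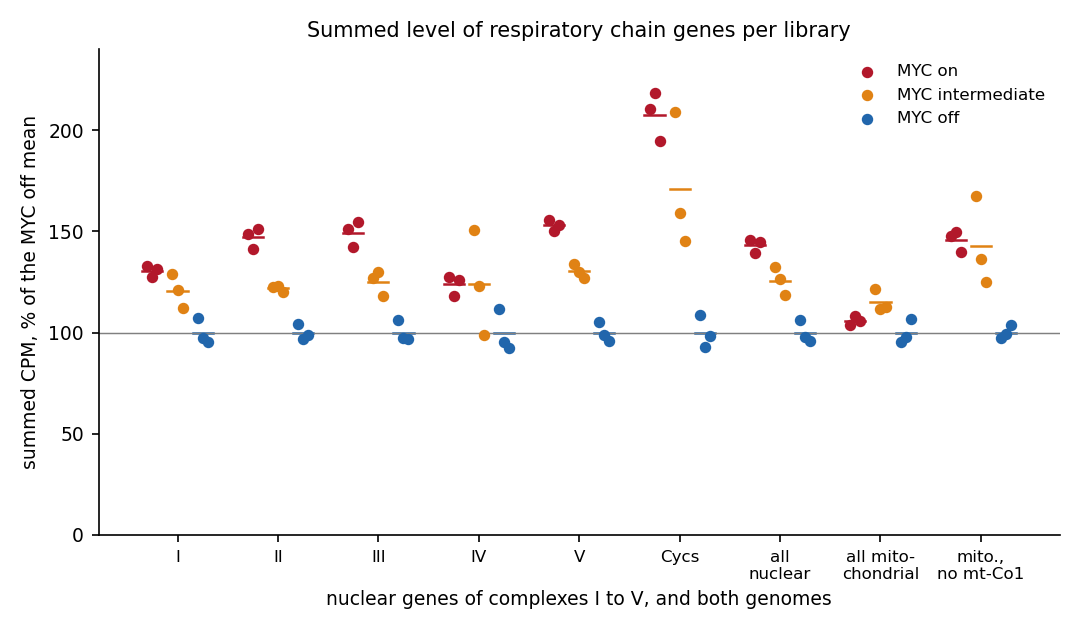
Summed CPM of each complex (nuclear genes) and each genome per library, as percent of its MYC off mean, with 1 point per library and a line at the group mean (n = 3). Complexes II, III and V separate the 3 groups, whereas for complex IV the MYC intermediate libraries run from the range of MYC off to above MYC on. The mitochondrial sums hold almost no reads of the 6 genes from mt-Co2 to mt-Nd4l.

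The MYC intermediate libraries differed among themselves in these genes, which bears on every comparison that follows. As all 9 libraries shared 1 estimate of spread, it also bears on the MYC on against MYC off calls above. Those were 54 higher in the main fit and 62, 49 or 61 without MYC intermediate replicate 1, 2 or 3. With only the 6 libraries compared they were 69. The share of all genes called is given for the main fit only, so these shifts may not be particular to the members. MYC intermediate replicate 1 was the highest of its group in 68 of the 88 tested nuclear members and replicate 3 the lowest in 70 of 88. Cox7c, a small complex IV subunit named for this spread, was at 42.1, 23.0 and 16.8 CPM in the 3 replicates, against 21.7 to 24.99 CPM in MYC on. The ratio of replicate 1 to replicate 3 had a median of 1.64 over the 21 nuclear members whose listed gene length is under 1000 bases and of 1.27 over the 67 longer ones, and its log2 value had a Spearman correlation of −0.44 with gene length over the 88 genes, which share these 2 libraries. Over 8990 protein-coding genes with a mean of at least 5 CPM the same correlation was −0.03. In MYC off, the corresponding value for replicate 1 over replicate 3 was −0.44 over the 88 genes and in MYC on it was 0.20. The source of this spread was not tested.

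**Figure D5:**
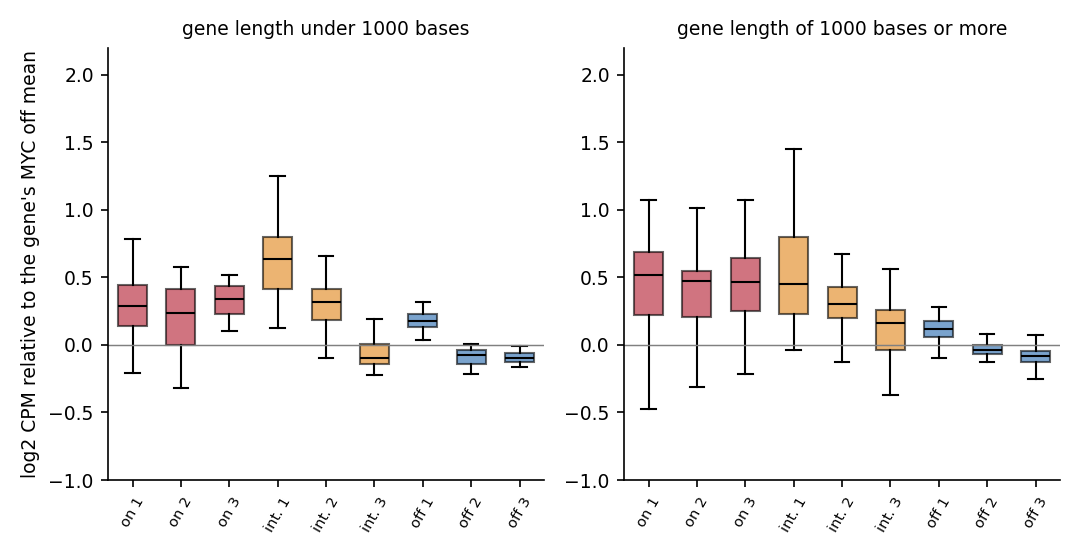
Log2 CPM per library relative to the mean of each gene's MYC off libraries, as boxes over 21 nuclear members with a gene length under 1000 bases (left) and 67 longer ones (right), with medians as black lines, whiskers to 1.5 interquartile ranges and points beyond not drawn. For the short genes the medians of the MYC intermediate libraries run from −0.10 to 0.64, wider than the 0.24 to 0.34 of MYC on, and for the longer genes from 0.16 to 0.45.

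MYC intermediate cells kept part of the respiratory chain level of MYC on cells. Of the 95 tested members, 38 were called higher in MYC intermediate than in MYC off and none lower by edgeR, whereas 14.7% and 9.95% of all genes tested were called in these directions. No member was called lower by DESeq2 either, none that was lower had an unadjusted edgeR p under 0.05, and the lowest log2 fold change of a member was −0.14. The median log2 fold change was 0.37. In 39 members the lowest MYC intermediate library exceeded the highest MYC off library, against 21% of all genes tested. By complex, higher calls were 14 of 44 for nuclear complex I, 3 of 4 for complex II, 7 of 9 for nuclear complex III, 2 of 13 for nuclear complex IV and 8 of 17 for complex V, and mt-Nd1, mt-Nd2 and mt-Cytb were the 3 of 7 from the mitochondrial genome. These counts by complex moved with single libraries. Without MYC intermediate replicate 3 they were 25 of 44 for nuclear complex I, 9 of 14 for nuclear complex IV and 13 of 17 for complex V. Without MYC intermediate replicate 2, nuclear complex III had 3 of 9. Without MYC off replicate 2 or 3, nuclear complex I had 9 or 8, nuclear complex III had 3 and nuclear complex IV had 0. The replicate block gave 22 of 44 for nuclear complex I and 7 of 13 for nuclear complex IV. Without MYC intermediate replicate 1 the count was 30 and the median 0.21, and without replicate 3 they were 63 (of 96 tested) and 0.46. Without MYC off replicate 2 or 3, the counts were 25 and 24.

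Between MYC on and MYC intermediate, 16 members were called higher and 3 lower in MYC on, at 17.2% and 17.4% of all genes tested, so that the share of higher calls was close to the background. The median log2 fold change was 0.08. In 25 members the lowest MYC on library exceeded the highest MYC intermediate library, against 27.6% of all genes tested. Without MYC intermediate replicate 1 there were 23 higher calls and a median of 0.22, without replicate 3 there were 13 higher and 9 lower calls and a median of −0.04, and without MYC on replicate 1 there were 8 higher calls. The 3 genes called lower were Atp5h, Ndufaf3 and mt-Co1, the last not without MYC on replicate 1 (−0.25). By complex, higher calls were 3 of 4 for complex II, 3 of 9 for nuclear complex III, 3 of 17 for complex V, 7 of 44 for nuclear complex I and 0 of 13 for nuclear complex IV, where no gene had an unadjusted edgeR p under 0.05 or was called by DESeq2. Without MYC on replicate 1 the counts were 1 for complex II, 0 for complex III and 4 for complex I, without MYC on replicate 3 they were 1 for complex II and 1 for complex III, and without MYC intermediate replicate 2 complex I had 4. Without MYC intermediate replicate 1, complex V had 5 and complex IV had 1. Among the 8 complex I assembly factors 4 were called higher, with Ndufaf4 (0.76 ± 0.12, edgeR adjusted p = 6.57e-05) and Ndufaf6 (0.55 ± 0.09, adjusted p = 1.16e-04) in front. mt-Nd1 and mt-Nd2, at 0.23 ± 0.12 and 0.24 ± 0.15, were called without MYC intermediate replicate 1 (0.46 and 0.49).

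The level of MYC intermediate cells was also set against the log2 midpoint of MYC on and MYC off. No member lay off the midpoint at an edgeR adjusted p under 0.01 (25 at an unadjusted p under 0.05, and 1 called by DESeq2), while 1.7% of all genes tested were called above and 0.184% below it. In direction, 91 of the 95 members lay above the midpoint, with a median distance of 0.16 on the log2 scale, against 58.6% of all genes tested and a median of 0.03. This count rested on 1 library. Without MYC intermediate replicate 1 it was 64 of 95 with a median of 0.04, against 56.3% and 0.02 over all genes tested. The nearest member to a call was mt-Cytb (adjusted p = 0.0157).

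For 42 members the MYC on against MYC off difference was called and at least 0.5 in size on the log2 scale, and the share of that difference already present between MYC on and MYC intermediate had a median of 0.34, and 39 were under 0.5. Over 5488 genes chosen the same way the median was 0.56. Without MYC intermediate replicate 1 the member median was 0.46 with 27 of 43 under 0.5, against 0.57 over all such genes. For human MYC itself this share was 0.19 on the log2 scale, where its very low MYC off level makes the whole difference large. Its mean CPM in MYC intermediate was 32.4% of that in MYC on, so 0.19 does not mean that it fell less than the members. All these shares of a log2 difference use the MYC on libraries in both differences and were not tested.

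Genes that build, feed or control the chain from outside the member rule were followed in 5 lists. Their counts in MYC on against MYC off stand against 27.4% called higher and 27.5% called lower over all genes tested. Of 44 tested assembly factors 22 were called higher in MYC on than in MYC off and 2 lower (median log2 fold change 0.35). They were led by Nubpl (1.22 ± 0.18), which delivers iron-sulfur clusters to complex I, Acad9 (1.10 ± 0.06), a complex I assembly protein, and Bcs1l (0.88 ± 0.07), which inserts the Rieske protein into complex III. Cmc2 (−0.68 ± 0.08) and Uqcc3 (−0.36 ± 0.10), assembly proteins of complexes IV and III, were called lower.

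Genes that copy, transcribe and process mitochondrial DNA and RNA were called higher in 22 of 30 cases and lower in 1 (median 0.74), where all genes tested gave 27.4% and 27.5%. Top1mt, the mitochondrial topoisomerase, had a log2 fold change of 2.55 ± 0.08, Tbrg4, a FASTK family RNA-binding protein, of 1.88 ± 0.07 and Elac2, which trims mitochondrial tRNAs, of 1.53 ± 0.06 (edgeR adjusted p = 8.07e-13, 3.52e-12 and 7.44e-12). Polg, the catalytic subunit of the mitochondrial DNA polymerase, was the gene called lower (−0.47 ± 0.06).

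Ubiquinone synthesis, which makes the lipid carrier between complexes I or II and complex III, was called higher in 11 of 13 genes and lower in 1 (median 0.82), again beside 27.4% and 27.5%. Coq8a (1.27 ± 0.13) and Coq4 (1.26 ± 0.09) support the synthesis complex, Pdss1 (1.17 ± 0.09) begins the side chain, and Coq10b (−0.74 ± 0.11), a lipid-binding protein, was the gene called lower. Of 8 tested dehydrogenases that feed ubiquinone from other pathways, 3 were called higher, a share near the 27.4% of all genes tested. Dhodh, the pyrimidine synthesis enzyme of the inner membrane, had a log2 fold change of 2.15 ± 0.07, while Etfb (0.47 ± 0.10) and Etfa (0.41 ± 0.06), the electron carrier of fatty acid oxidation, changed less.

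Transcriptional regulators of mitochondrial genes had 2 of 9 called higher and 3 lower, shares near the 27.4% and 27.5% of all genes tested. Higher were the coactivators Pprc1 (2.47 ± 0.07, edgeR adjusted p = 9.41e-14) and Ppargc1b (2.05 ± 0.14). Lower were Tfeb (−0.60 ± 0.08), a regulator of lysosomes and mitochondrial turnover, Gabpb1 (−0.51 ± 0.07), a subunit of the ETS factor GABP, and Nrf1 (−0.41 ± 0.05), whose letters were searched above. Ppargc1a had 0 counts. The 3 lower genes were at 26.3, 68.4 and 243 mean CPM with MYC on and 40.9, 99.3 and 330 mean CPM with MYC off.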

How the data were processed

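The 9 libraries came from oligo(dT)-primed cDNA, made with a kit that keeps no strand. Tools listed in the submitters' processing notes are STAR 2.5.4b, cutadapt 1.16 and featureCounts, with genome mm10. The annotation release, the strand setting and the handling of reads that fit several places are not given in the sources used here. The authors deposited raw counts per gene, a score (reads per kilobase of listed gene length), FPKM and TPM values made from it, and a fraction that ranks genes within a library. Counts were used for tests and TPM for comparisons between genes. FPKM, score and fraction were not used.

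Symbols and positions were taken from GENCODE M21 by gene ID, which was found for 53274 of 53380 rows, and 1 further M21 entry named Atp5o was not analysed here. Genes passing edgeR's count filter were fitted with edgeR 4.0.16 (quasi-likelihood, TMM, group as the term, all 9 libraries, R 4.3.3), giving log2 fold changes. Standard errors were worked back from the test, as the absolute log2 fold change over the square root of its F statistic. The fit was tested on simulated data with independent libraries and 200 of 14098 genes changed. For MYC on against MYC off it recovered 73.4% of 1.5-fold, 89.1% of 2-fold and 93.8% of 4-fold changes, with 4 false calls. Far more genes were called in the real data, so this does not give the error rate there. Depth sets a limit of 0.0756 to 0.160 CPM for a count of 0 in 1 library (3 counts, counting error only). Copies were found with blastn 2.17.0.

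Deviations from the group means over 9946 genes were correlated between libraries with the same number. For the pair MYC on and MYC off r was 0.38, 0.25 and 0.22, for MYC on with MYC intermediate 0.13, −0.18 and −0.16, and for MYC intermediate with MYC off 0.37, 0.03 and 0.08, so that only the first comparison counted as paired. The main fit ignores this pairing. Its calls, standard errors and adjusted p-values come without a replicate block, with 54 members higher in MYC on against MYC off and 64 with the block. In MYC intermediate against MYC off, which was not counted as paired, the higher calls went from 38 to 56 with the block. Library numbers are the replicate numbers in the labels.

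Named genes were, per complex and direction, up to 3 called members with the largest difference between MYC on and MYC off and a mean of at least 5 CPM in 1 group, every called member lower in MYC on, the mitochondrial genes, the isoform families, Cyc1, Cycs and the Sdh genes, and up to 3 called genes per list. The rule, the members and the lists were chosen with earlier results of these data known.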

Additional observations from a re-analysis of the deposited data

How the results depend on the processing

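The counts of members called and their median log2 fold changes were recomputed with other size factors (RLE or the library total alone), DESeq2 1.42.0, no count filter, a filter of 1 CPM in 3 libraries, only the 6 libraries compared, a replicate block, thinned counts, a threshold of 0.05, near-identical copies added to their members (chosen after seeing the data) and each library left out. For MYC on against MYC off the counts stayed within 1.5 times of 54 higher and 3 lower in all of them (41 to 62 and 2 to 3 with 1 library left out), and no gene changed direction while called. With the replicate block the higher calls were 64, 19 and 56 for MYC on against MYC off, MYC on against MYC intermediate and MYC intermediate against MYC off. For all these other settings the share of all genes called is not given here, so the shifts may not be particular to the members.

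For MYC on against MYC intermediate, members called lower were 5 at a threshold of 0.05 and 6 without a count filter, and with 1 library left out the counts ran from 8 to 23 higher and 2 to 9 lower. For MYC intermediate against MYC off, higher calls were 67 without a count filter and 24 to 63 with 1 library left out. Members off the midpoint were 1 at a threshold of 0.05, with DESeq2 or with the replicate block, 21 without a count filter and 0 to 5 with 1 library left out. The cause was not tested. With 1 library left out, mitochondrial medians ran from 0.047 to 0.25 for MYC on over MYC off, from −0.18 to 0.037 for MYC on over MYC intermediate and from 0.14 to 0.43 for MYC intermediate over MYC off. The nuclear medians ran from 0.40 to 0.56, −0.03 to 0.22 and 0.22 to 0.47.

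Every value is relative to the library total, and RNA per cell was not measured. Listed lengths count all annotated exons, which lowers per-length levels of genes with long rare exons. How reads shared between mitochondrial genes and their nuclear copies were counted is not known, and its part in the mitochondrial values was not tested.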
